A study of Mus musculus with 12 samples.

Results

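The elastic fibre and small proteoglycan genes described here are Eln, Fbn1, Mfap4, Mfap5, Fbln1, Fbln5, Mgp, Dcn, Lum and Bgn. They were chosen by name, as genes for elastic fibre parts, a calcification inhibitor and small matrix proteoglycans, and are 10 of the 46517 genes in the count table. All 10 were among the 14216 genes with enough counts for testing. They were measured by bulk RNA sequencing in macrophages sorted from adult wild-type C57/BL6 mice. Sorted cells excluded the DAPI stain and carried F4/80, CD11b, MerTK, CD64 and CD45 on their surface. They were then split by LYVE-1, a hyaluronan receptor found on some tissue macrophages. The groups were LYVE1+ and LYVE1- macrophages of the aorta, from 30 mice, and LYVE1+ and LYVE1- macrophages of epididymal and subcutaneous fat, from 20 mice, with 3 libraries per group. The sources used here do not give which animals went into which library, so p-values cover the spread among these libraries, which may be technical.

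An elastic fibre has a core of cross-linked elastin laid down on a scaffold of microfibrils, which are built mainly of fibrillin-1. Microfibril-associated proteins and fibulins bind to this scaffold and help elastin to assemble. Elastic fibres give the aorta its recoil, and matrix Gla protein keeps the arterial wall from calcifying. Small leucine-rich proteoglycans such as decorin, lumican and biglycan bind collagen fibrils and set their spacing. In the vessel wall these proteins are known chiefly as products of smooth muscle cells and fibroblasts, and in fat chiefly of fibroblasts.

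Libraries held 5049936 to 29792301 counts, with the lowest total in a fat LYVE1+ library and the highest in an aortic LYVE1- library. Levels are given as CPM, counts relative to library size after scaling by the trimmed mean of M-values (TMM). Lyve1 ranged over 2042 to 2803 CPM in aortic LYVE1+ libraries against 867 to 1322 CPM in aortic LYVE1- libraries, and over 1493 to 2191 CPM in fat LYVE1+ libraries against 229.6 to 610.1 CPM in fat LYVE1- libraries, without overlap of the sorts. The macrophage genes Csf1r, C1qa and Mrc1 were at 1458 CPM or more in every library. The fat libraries numbered 1 stood apart: summed haemoglobin and Alas2 levels were 25060 CPM in fat LYVE1+ library 1 and 5200 CPM in fat LYVE1- library 1, against at most 1399 CPM elsewhere. Library identifiers in the labels began with RMM for aortic LYVE1+ libraries 1 and 2 and all fat libraries, and with RHH for aortic LYVE1+ library 3 and all aortic LYVE1- libraries. Within LYVE1- cells the prefix and the tissue therefore cannot be told apart. In the aorta the prefix is also partly tied to the sort, as only LYVE1+ cells have RMM libraries there.

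The largest differences lay between tissues, although several of these calls depended on the settings given below. Over both sorts, 6 of the 10 genes were higher in aortic than in fat macrophage libraries (Eln, Mfap4, Mgp, Fbln1, Fbln5 and Bgn). Of all genes tested, 4.6% were called higher in that comparison and 8.22% were called in either direction. For Eln, Mfap4, Mgp and Bgn every aortic library was above every fat library, as for 2.12% of all genes. Between the LYVE1 sorts, Fbln5 was higher in LYVE1+ than in LYVE1- cells of fat, and no gene of the set was called in the aorta. A call means a Benjamini-Hochberg adjusted p below 0.05 over all 14216 genes in edgeR's quasi-likelihood test, here and below. In bulk RNA, fewer cells of a type and less RNA per cell cannot be told apart.

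**Figure D1:**
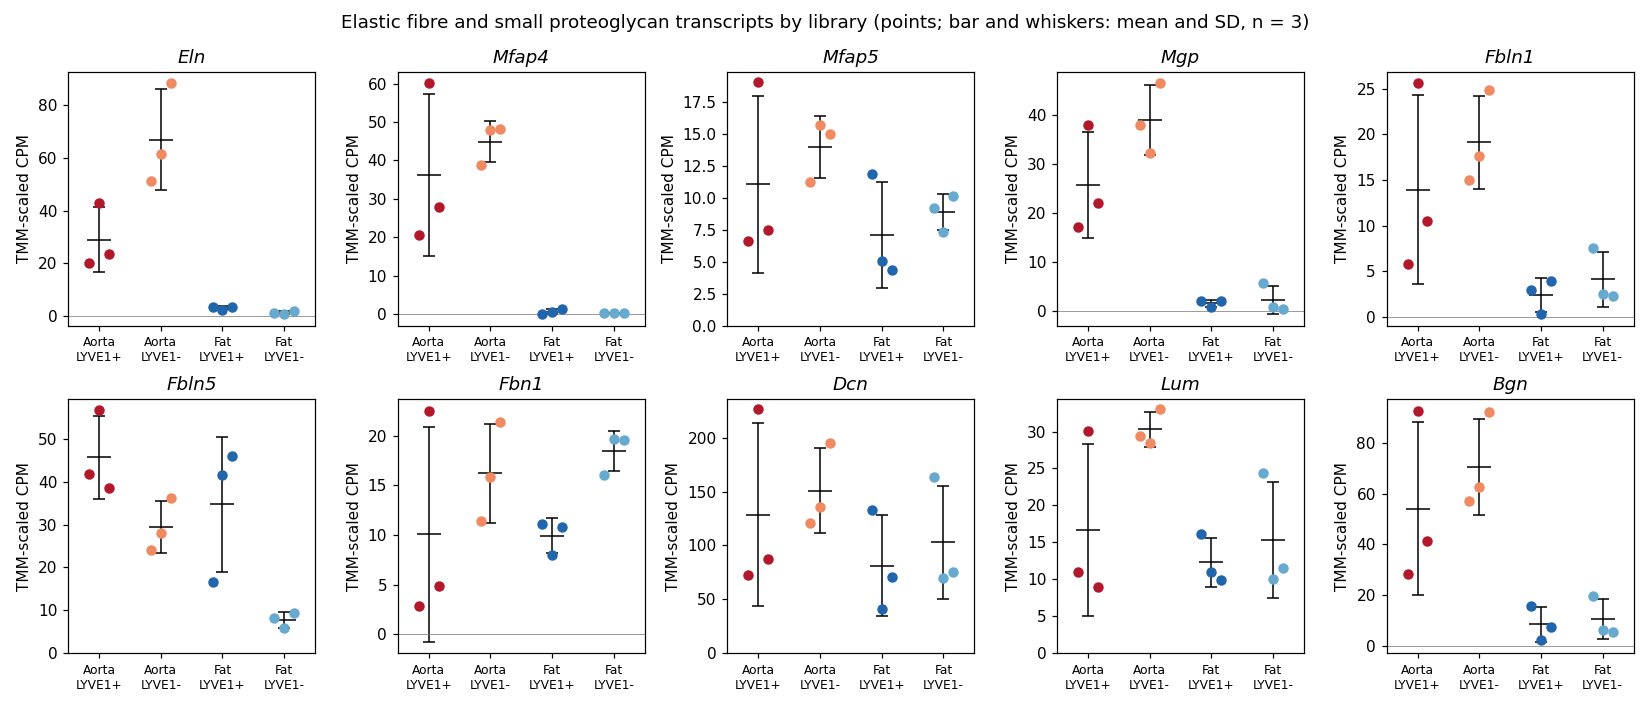
Level of each of the 10 genes in every library (points, TMM-scaled CPM on linear axes that differ between panels), with the mean and SD of each group of 3. Eln and Mfap4 lie above 20 CPM in every aortic library and below 4 CPM in every fat library, whereas Dcn spans 40.9 to 226.5 CPM with overlap of all groups.

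Eln encodes elastin, the core of the fibre (ENSMUSG00000029675.11, chr5:134702593-134747323, minus strand, GRCm38). Its level was 20.1, 43.0 and 23.7 CPM in the 3 aortic LYVE1+ libraries, against 51.1, 61.3 and 88.2 CPM in the 3 aortic LYVE1- libraries. Every aortic LYVE1+ library was lower than every aortic LYVE1- library. In fat the order was the opposite: Eln was at 3.64, 2.51 and 3.42 CPM in LYVE1+ libraries, against 1.28, 0.784 and 2.09 CPM in LYVE1- libraries. The fat values rest on 19 to 34 counts per LYVE1+ library and 8 to 21 counts per LYVE1- library. Neither difference between sorts passed the test. The log2 fold change of LYVE1+ over LYVE1- was -1.21 in the aorta (SE 0.32, adjusted p = 0.139 in edgeR) and 1.17 in fat (SE 0.43, adjusted p = 0.183 in edgeR). The difference between these effects, aorta minus fat, was -2.38 (SE 0.53, adjusted p = 0.146 in edgeR). The aortic difference was called with DESeq2 (log2 fold change -1.22, adjusted p = 0.0223) and by edgeR when no filter on low counts was used (adjusted p = 0.00511). For the difference between the effects of Eln, the adjusted p was 0.00468 in DESeq2 and 0.00275 in edgeR without the filter. With the identifier prefix as a term in the fit, neither was called. The aortic log2 fold change of Eln was then -1.49 (SE 0.49, edgeR adjusted p = 0.677). Its difference between the effects was -2.67 (SE 0.66, edgeR adjusted p = 0.513).

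The tissue difference of Eln was larger than the spread between libraries in either sort. It was 3.20 on the log2 scale, aorta over fat, in LYVE1+ cells (SE 0.37, edgeR adjusted p = 0.0011) and 5.58 in LYVE1- cells (SE 0.41, edgeR adjusted p = 3.55e-05). Within LYVE1+ libraries of the RMM prefix, 2 from the aorta and 3 from fat, the difference was 3.31 (SE 0.46, edgeR adjusted p = 0.0231). Eln shares 267 exonic bases with an antisense gene, Gm30003, and the library protocol does not mark strand, so reads of the pair in that stretch were not separated.

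Of the microfibril genes, Mfap4 was called higher in the aorta. It encodes a microfibril-associated glycoprotein that binds fibrillin and elastin (ENSMUSG00000042436.11, chr11:61485431-61488900, plus strand). Mfap4 was at 20.5, 60.1 and 27.9 CPM in aortic LYVE1+ libraries and at 38.7, 47.9 and 48.2 CPM in aortic LYVE1- libraries. Fat LYVE1+ libraries held 0, 7 and 13 counts of Mfap4 (0, 0.606 and 1.31 CPM), and fat LYVE1- libraries held 2, 3 and 4 counts (0.255, 0.294 and 0.398 CPM). The count of 0 allows a level of up to 0.575 CPM in that library, from 3 counts, with counting error only. Mfap4 was thus near the limit of detection in fat, and every aortic library was above every fat library. The log2 difference, aorta over fat, was 5.62 in LYVE1+ cells (SE 0.56, edgeR adjusted p = 0.000347) and 7.09 in LYVE1- cells (SE 0.62, edgeR adjusted p = 6.48e-05). It was 5.81 within the RMM libraries of LYVE1+ cells (SE 0.745, edgeR adjusted p = 0.017). Mfap4 shares 89 exonic bases with Mapk7 on the opposite strand.

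Mfap5, another microfibril-associated glycoprotein (ENSMUSG00000030116.13, chr6:122505845-122529290, plus strand), differed less between the groups. It averaged 11.1 ± 6.94 CPM in aortic LYVE1+ libraries, 14.0 ± 2.43 CPM in aortic LYVE1- libraries, 7.10 ± 4.15 CPM in fat LYVE1+ libraries and 8.89 ± 1.42 CPM in fat LYVE1- libraries (SD, n = 3 each). Its log2 difference over both sorts, aorta over fat, was 0.66 (SE 0.31, edgeR adjusted p = 0.236), although every aortic LYVE1- library (11.2, 15.7 and 15.04 CPM) was above every fat LYVE1- library (9.19, 7.35 and 10.1 CPM). Fbn1 encodes fibrillin-1, the main microfibril protein (ENSMUSG00000027204.12, chr2:125300594-125507993, minus strand). Fbn1 was at 2.86, 22.5 and 4.90 CPM in aortic LYVE1+ libraries and 11.4, 15.9 and 21.4 CPM in aortic LYVE1- libraries, and its tissue difference over both sorts was -0.09 (SE 0.40, edgeR adjusted p = 0.931). In fat, Fbn1 was at 11.1, 7.97 and 10.8 CPM in LYVE1+ libraries, against 16.1, 19.7 and 19.6 CPM in LYVE1- libraries. The fat sorts did not overlap, with LYVE1+ lower, but the log2 fold change of -0.90 (SE 0.57, edgeR adjusted p = 0.509) did not pass the test. In the aorta, the high value of LYVE1+ library 2 set the result: the log2 fold change of Fbn1 was -0.69 with all libraries (edgeR adjusted p = 0.693) and -2.07 without that library (SE 0.35, edgeR adjusted p = 0.0332). Fbn1 shares 2442 exonic bases with Gm9913 on the opposite strand.

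Fbln5 was the gene of the set called between LYVE1 sorts, in fat. It encodes fibulin-5, which ties elastin to cell-surface integrins and is needed for fibre assembly in mice (ENSMUSG00000021186.8, chr12:101746565-101819055, minus strand). In fat its level was 16.7, 41.6 and 45.9 CPM in LYVE1+ libraries, against 8.17, 5.78 and 9.25 CPM in LYVE1- libraries. All LYVE1+ values were higher, and the lowest belonged to library 1. Fbln5 was 4.53-fold higher in fat LYVE1+ than in fat LYVE1- cells (log2 fold change 2.18, SE 0.34, edgeR adjusted p = 0.00323). It was the 1 gene of the 10 called between the fat sorts, where 3.93% of all genes tested were called and 1.82% were called higher. Without both fat libraries numbered 1, the log2 fold change of Fbln5 was 2.54 (SE 0.285, edgeR adjusted p = 0.000207). The summed level of 19 fibroblast markers was 510.7 to 692.4 CPM in fat LYVE1+ libraries and 641.1 to 1143 CPM in fat LYVE1- libraries, with overlap. Fbln5 was higher in LYVE1+ libraries per unit of that sum too. The divisor was lower on average in LYVE1+ libraries (575.3 against 835.1 CPM), which by itself widens the difference. The part of fibroblasts in the Fbln5 difference was not tested. The sum of 6 lymphatic endothelial markers, cells that also carry LYVE-1, was 15.9, 4.16 and 3.22 CPM in fat LYVE1+ libraries, against 7.53, 1.67 and 3.98 CPM in fat LYVE1- libraries. Of 5 such markers tested, 1 (Prox1, their defining transcription factor) was called higher in fat LYVE1+ cells, with 48 counts over the LYVE1+ and 1 count over the LYVE1- libraries. The log2 fold change in fat was positive for 4 of the 5 and negative for 1. Its median was 5.22, against 0.00482 over all genes. In the aorta 4 of the 5 were positive too, with a median of 3.18, against -0.0135 over all genes. With sums this low, the size of these fold changes is uncertain. Of the fat LYVE1+ libraries, library 1 had the highest lymphatic sum and the lowest Fbln5. That library also had the fewest counts and the highest haemoglobin levels of all. The part of lymphatic endothelial cells in the Fbln5 difference was not tested.

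In the aorta Fbln5 was at 41.8, 56.8 and 38.5 CPM in LYVE1+ libraries, against 24.2, 28.1 and 36.1 CPM in LYVE1- libraries. The sorts did not overlap here either, with LYVE1+ higher, but the log2 fold change of 0.63 (SE 0.31, edgeR adjusted p = 0.485) did not pass. The difference between the tissues' effects, aorta minus fat, was -1.55 (SE 0.46, edgeR adjusted p = 0.429), and -1.87 without fat LYVE1+ library 1 (SE 0.33, edgeR adjusted p = 0.0324). Between tissues, Fbln5 was higher in aorta than in fat in LYVE1- cells (log2 fold change 1.93, SE 0.34, edgeR adjusted p = 0.0108). In LYVE1- cells this call was lost without fat LYVE1- library 2 (1.76, edgeR adjusted p = 0.0608). In LYVE1+ cells the tissue difference of Fbln5 was 0.38 (SE 0.31, edgeR adjusted p = 0.633).

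The upstream sequence of Fbln5 is shown because it is the gene of the set called between LYVE1 sorts. The 250 bases before its RefSeq start site (GRCm38.p6, chr12:101819120-101819369, minus strand) read as follows, 5′ to 3′, with matches to the searched motifs in capitals.
Fbln5: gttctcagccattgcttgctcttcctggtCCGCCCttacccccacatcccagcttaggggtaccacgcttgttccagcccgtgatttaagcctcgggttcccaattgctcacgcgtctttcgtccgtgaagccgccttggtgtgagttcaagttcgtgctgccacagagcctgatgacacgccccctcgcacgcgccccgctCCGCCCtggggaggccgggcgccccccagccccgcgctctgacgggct
The motifs were a TATA box (TATAAA), a GC box (GGGCGG), a PU box (GAGGAA), a MAF recognition core (TGCTGA) and the CArG box of smooth muscle genes, on both strands. Fbln5 had 2 GC boxes on the reverse strand, 221 to 216 and 48 to 43 bases before the start, and no match to the others. GC boxes occur in 32.7% of 32851 mouse promoter windows of the same length, TATA boxes in 12.4%, PU boxes in 23.3%, MAF cores in 16.1% and CArG boxes in 1.47%. A match is a description of the letters only.

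Fbln1 encodes fibulin-1, which binds elastin and basement membrane proteins (ENSMUSG00000006369.13, chr15:85205949-85286535, plus strand). It was at 5.76, 25.6 and 10.4 CPM in aortic LYVE1+ libraries and 15.02, 17.6 and 24.9 CPM in aortic LYVE1- libraries. Fat levels of Fbln1 were 2.87, 0.26 and 3.93 CPM in LYVE1+ libraries and 7.53, 2.45 and 2.29 CPM in LYVE1- libraries. Within each sort, the aortic libraries were all higher than the fat libraries. The test called Fbln1 higher in aorta over both sorts (log2 fold change 2.42, SE 0.53, edgeR adjusted p = 0.0142) but within neither sort, with adjusted p = 0.1 in LYVE1+ and 0.141 in LYVE1- cells in edgeR. Within the sorts Fbln1 was called by DESeq2 (adjusted p = 0.00888 in LYVE1+ and 0.0299 in LYVE1- cells) and by edgeR with no filter (adjusted p = 0.00147 in LYVE1+ and 0.00546 in LYVE1- cells). In LYVE1- cells it was also called by edgeR with only the groups compared (adjusted p = 0.0458) and without both fat libraries numbered 1 (adjusted p = 0.0396). The sorts overlapped in both tissues.

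Mgp encodes matrix Gla protein, a vitamin K-dependent protein whose loss in mice calcifies the arteries (ENSMUSG00000030218.2, chr6:136872435-136875823, minus strand). Its level was 17.1, 37.9 and 22.0 CPM in aortic LYVE1+ libraries and 38.0, 32.3 and 46.5 CPM in aortic LYVE1- libraries. In fat it was 1.92, 0.779 and 1.91 CPM in LYVE1+ libraries and 5.62, 0.686 and 0.398 CPM in LYVE1- libraries. Every aortic library was above every fat library, and the highest fat value was that of LYVE1- library 1. The log2 difference, aorta over fat, was 4.11 in LYVE1+ cells (SE 0.72, edgeR adjusted p = 0.0087) and 4.19 in LYVE1- cells (SE 0.70, edgeR adjusted p = 0.00808). Within the RMM libraries of LYVE1+ cells it was 4.19 but did not pass (SE 0.95, edgeR adjusted p = 0.11), and without fat LYVE1+ library 2 it was 3.75 (edgeR adjusted p = 0.0508). Without both fat libraries numbered 1, the Mgp difference in LYVE1- cells was 6.14 (SE 0.52, edgeR adjusted p = 5.93e-05). The sorts of a tissue overlapped, and the log2 fold change of LYVE1+ over LYVE1- in fat turned from negative to positive without those libraries, at 1.27 (SE 0.67, edgeR adjusted p = 0.362) against -0.52 with all (SE 0.77, edgeR adjusted p = 0.814).

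Of the 3 proteoglycans, Bgn was called in the tissue comparison with all libraries. It encodes biglycan, a collagen-binding proteoglycan (ENSMUSG00000031375.16, chrX:73483602-73495933, plus strand). It was at 28.4, 92.6 and 41.3 CPM in aortic LYVE1+ libraries and 56.9, 62.4 and 92.2 CPM in aortic LYVE1- libraries, against 15.7, 2.42 and 7.35 CPM in fat LYVE1+ libraries and 19.5, 6.37 and 5.47 CPM in fat LYVE1- libraries. All aortic values were above all fat values. The log2 difference, aorta over fat, was 2.75 in LYVE1+ cells (SE 0.64, edgeR adjusted p = 0.0392) and 2.77 in LYVE1- cells (SE 0.63, edgeR adjusted p = 0.0393). Both calls of Bgn were close to the threshold. The LYVE1+ call ended in 7 of 12 fits that left out 1 library (edgeR adjusted p = 0.0551 to 0.14), namely aortic LYVE1+ libraries 2 and 3, each aortic LYVE1- library and fat LYVE1+ libraries 2 and 3. The LYVE1- call of Bgn also ended in 7 of 12 (edgeR adjusted p = 0.0514 to 0.153), without aortic LYVE1+ library 3, any 1 aortic LYVE1- library, fat LYVE1+ library 3 or fat LYVE1- libraries 2 or 3. Over both sorts the log2 difference was 2.76 (SE 0.45, edgeR adjusted p = 0.00256), a call that no left-out library ended.

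The upstream sequence of Bgn is shown as that of a gene called higher in aorta in both sorts. The 250 bases before its RefSeq start site (GRCm38.p6, chrX:73483351-73483600, plus strand) are printed in the same way as for Fbln5.
Bgn: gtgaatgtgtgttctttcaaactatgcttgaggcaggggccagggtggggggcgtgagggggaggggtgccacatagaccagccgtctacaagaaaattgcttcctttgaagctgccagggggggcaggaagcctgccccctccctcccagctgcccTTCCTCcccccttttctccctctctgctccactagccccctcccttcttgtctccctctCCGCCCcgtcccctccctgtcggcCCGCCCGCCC
It held 3 GC boxes on the reverse strand, at 34 to 29, 10 to 5 and 6 to 1 bases before the start, the last pair overlapping, and 1 PU box on the reverse strand 93 to 88 bases before the start. Both promoters thus held GC boxes and neither held a match to the TATA or CArG box. Of the 10 genes, 4 (Fbln1, Fbln5, Fbn1 and Bgn) were matched in the RefSeq promoter table.

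Decorin and lumican transcripts were present in both tissues. Dcn (ENSMUSG00000019929.14, chr10:97479609-97518143, plus strand) averaged 128.8 ± 85.0 CPM in aortic LYVE1+ libraries, 150.9 ± 39.5 CPM in aortic LYVE1- libraries, 81.4 ± 47.0 CPM in fat LYVE1+ libraries and 102.8 ± 53.0 CPM in fat LYVE1- libraries (SD, n = 3 each). Lum (ENSMUSG00000036446.4, chr10:97565128-97572703, plus strand) averaged 16.7 ± 11.7, 30.3 ± 2.37, 12.3 ± 3.33 and 15.3 ± 7.90 CPM in the same order of groups. The aortic and fat libraries overlapped for Dcn in both sorts and for Lum in LYVE1+ cells, whereas all aortic LYVE1- libraries were above all fat LYVE1- libraries for Lum. Neither gene was called over both sorts, where the log2 difference, aorta over fat, was 0.61 for Dcn (SE 0.34, edgeR adjusted p = 0.325) and 0.72 for Lum (SE 0.31, edgeR adjusted p = 0.187). In fat, the highest value of Dcn and of Lum in either sort came from library 1. Without both fat libraries numbered 1, both were called higher in aorta, with 1.14 for Dcn (edgeR adjusted p = 0.0213) and 1.08 for Lum (edgeR adjusted p = 0.0277).

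Per kilobase of exon, the order of the levels also differed between tissues. In aortic LYVE1- libraries the highest CPM per kilobase belonged to Mgp (32.8 ± 5.99), Dcn (25.9 ± 6.76) and Mfap4 (23.4 ± 2.79). The gap between Dcn and Mfap4 was smaller than either SD, and that between Mgp and Dcn was slightly larger than either. Lum (12.4 ± 0.97), Bgn (11.6 ± 3.12) and Eln (8.26 ± 2.37) came next, then Fbln1 (4.39 ± 1.17), Fbln5 (4.26 ± 0.88) and Mfap5 (3.90 ± 0.68), and Fbn1 (1.34 ± 0.41) was lowest. The same 3 genes led in aortic LYVE1+ libraries, where Dcn was at 22.1 ± 14.6, Mgp at 21.6 ± 9.17 and Mfap4 at 18.8 ± 10.9 CPM per kilobase. In fat Dcn was highest in both sorts, at 13.9 ± 8.04 CPM per kilobase in LYVE1+ and 17.6 ± 9.08 in LYVE1- libraries, and Mfap4 and Eln were lowest, at 0.33 ± 0.34 and 0.39 ± 0.07 in LYVE1+ libraries and 0.16 ± 0.04 and 0.17 ± 0.08 in LYVE1- libraries (SD, n = 3 each). Mfap4 thus stood among the most abundant of the 10 per length in the aorta and among the least abundant in fat.

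**Figure D2:**
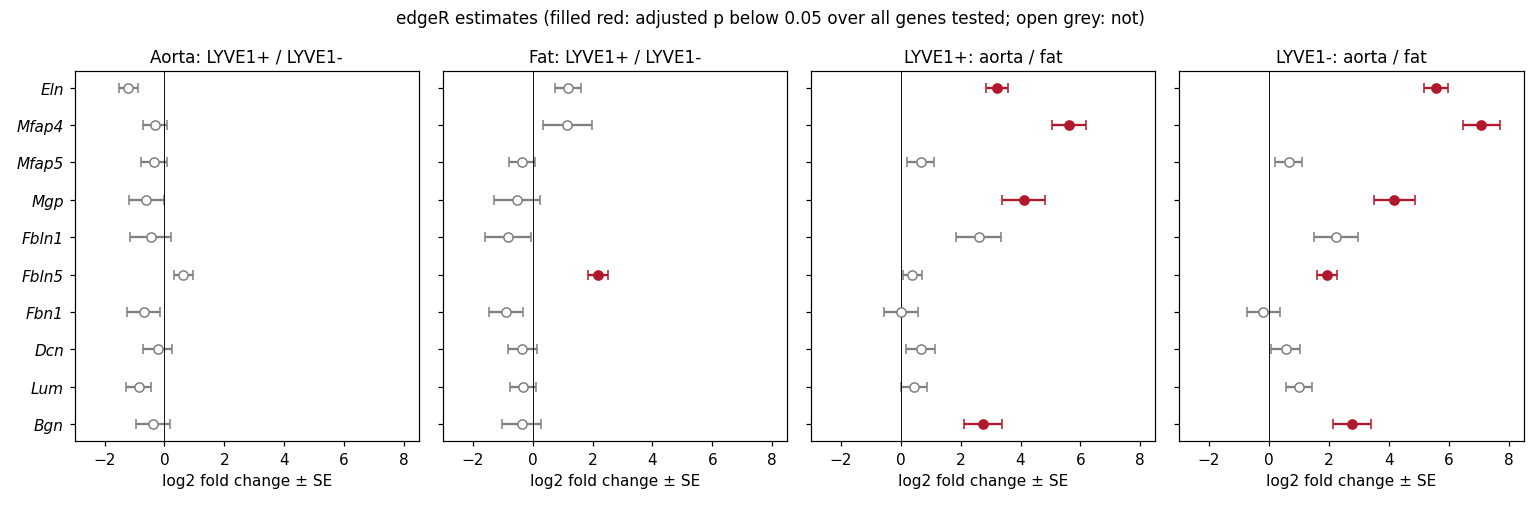
Log2 fold change of each gene in the 4 comparisons between groups (points, edgeR estimate; bars, SE), filled where the adjusted p over all genes tested was below 0.05. Fbln5 is the filled point between the fat sorts, and Eln, Mfap4, Mgp and Bgn are filled in both tissue comparisons.

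Between the LYVE1 sorts of the aorta, none of the 10 genes was called by edgeR's quasi-likelihood test, 1 (Eln) had an unadjusted p below 0.05, and DESeq2 called 1 (Eln); of all genes tested, 0.542% were called. The log2 fold change of LYVE1+ over LYVE1- was negative for 9 of 10, with a median of -0.42, against a median of -0.0135 over all genes tested. The sorts did not overlap for 2 of 10 (Eln lower, Fbln5 higher), against 22.4% of all genes. In fat 7 of 10 were negative, with a median of -0.35, against 0.00482 over all genes, and the sorts did not overlap for 3 of 10 (Eln and Fbln5 higher, Fbn1 lower), against 18.9% of all genes. The fibroblast marker genes shared the sign in both tissues: 16 of 18 tested had a negative log2 fold change in the aorta and 17 of 18 in fat, and their part in the values of the 10 was not tested. Of the difference between the tissues' LYVE1 effects, 0 of 10 were called by edgeR, 2 (Eln and Fbln5) had an unadjusted p below 0.05 and DESeq2 called 1 (Eln), against 0.155% of all genes called by edgeR.

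Between tissues, 4 of 10 were called higher in aortic LYVE1+ than in fat LYVE1+ cells (Eln, Mfap4, Mgp and Bgn), against 1.88% of all genes called higher and 3% called in either direction. In LYVE1- cells 5 of 10 were called higher in the aorta (the same 4 and Fbln5), against 1.66% called higher and 2.48% called in either direction. The median log2 difference, aorta over fat, was 1.63 in LYVE1+ and 2.09 in LYVE1- cells over the 10, against -0.015 and -0.00408 over all genes tested. With the identifier prefix as a term in the fit, 2 of 10 (Eln and Mfap4) were called over both sorts. Their log2 differences were 4.66 (SE 0.45) and 6.70 (SE 0.65), with an edgeR adjusted p of 0.000739 for each. Mgp, Fbln1, Fbln5 and Bgn were no longer called. For these 4 the log2 differences were 4.36, 2.79, 1.39 and 3.11 with the term (SE 0.83, 0.90, 0.39 and 0.76). Without it they were 4.15, 2.42, 1.16 and 2.76 (SE 0.50, 0.53, 0.23 and 0.45). Only aortic LYVE1+ cells had libraries of both prefixes. Over all genes, 37 were called higher and 16 lower with the term, against 654 and 514 without it. The tissue comparisons within each sort and the one over both sorts use the same libraries in part.

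Markers of other cell types moved with tissue beside these genes. The fibroblast marker sum was 912.6 to 2600 CPM in aortic LYVE1+ and 1402 to 2442 CPM in aortic LYVE1- libraries, against 510.7 to 692.4 CPM in fat LYVE1+ and 641.1 to 1143 CPM in fat LYVE1- libraries. Its most abundant genes were Col1a1, Col3a1 and Col1a2, collagen chains, with Col1a1 at 571.3 ± 345 and 653.9 ± 227 CPM in aortic LYVE1+ and LYVE1- libraries and at 129.9 ± 5.04 and 171.4 ± 48.9 CPM in fat LYVE1+ and LYVE1- libraries (SD, n = 3 each). Over both sorts 5 of 18 fibroblast markers tested were called higher in aorta and none lower, where 4.6% of all genes were called higher. The sum of 17 smooth muscle markers was 74.7 to 119.2 CPM in aortic LYVE1+ and 74.6 to 167.1 CPM in aortic LYVE1- libraries, against 33.3 to 55.4 CPM in fat LYVE1+ and 29.7 to 46.3 CPM in fat LYVE1- libraries. Mylk, Acta2 and Myl9, parts of the contractile apparatus and its control, were its most abundant genes, and 6 of 14 tested were called higher in aorta over both sorts and none lower. Acta2 averaged 17.4 ± 9.16 and 32.8 ± 17.8 CPM in aortic LYVE1+ and LYVE1- libraries, and 4.26 ± 5.47 and 0.974 ± 1.28 CPM in fat LYVE1+ and LYVE1- libraries (SD, n = 3 each). Cnn1, a smooth muscle actin-binding protein named after its values were seen, had 76 and 188 counts over the aortic LYVE1+ and LYVE1- libraries and 0 and 1 counts over the fat LYVE1+ and LYVE1- libraries. Fibroblast and smooth muscle transcripts were therefore both measured in the aortic sorts. All 10 genes had their highest aortic LYVE1+ value in library 2, as had the fibroblast sum (2600 CPM) and the lymphatic endothelial sum (57.5 CPM). That lymphatic sum was 18.1 to 57.5 CPM in aortic LYVE1+ and 9.52 to 18.4 CPM in aortic LYVE1- libraries, against 3.22 to 15.9 CPM in fat LYVE1+ and 1.67 to 7.53 CPM in fat LYVE1- libraries, with 2 of 5 tested markers (Prox1 and Mmrn1, the second named after its value was seen) called higher in aorta over both sorts. The part of lymphatic cells in the tissue differences was not tested.

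**Figure D3:**
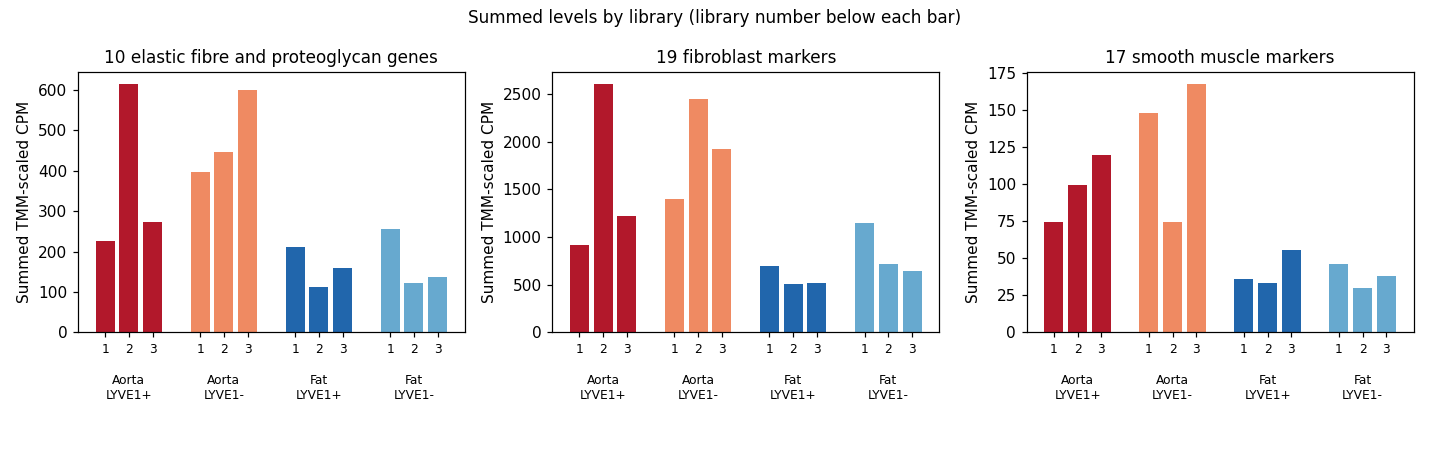
Summed level of the 10 genes, of 19 fibroblast markers and of 17 smooth muscle markers in each library (bars from 0, TMM-scaled CPM; axes differ between panels). The 10 genes and the fibroblast markers are both highest in aortic LYVE1+ library 2 within their group, at 614.2 and 2600 CPM, whereas the smooth muscle sum is highest in library 3 of that group, at 119.2 CPM.

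The co-variation of each gene with these sums was then described within a tissue, over 6 libraries each. Levels were taken as log2(CPM + 1), with a pseudocount of 1 CPM. In the aorta the genes followed the fibroblast sum more closely than the smooth muscle sum. Co-variation with the sums of other cell types was not tested. The pericyte and endothelial sums were also highest in library 2 among aortic LYVE1+ libraries, at 22.5 and 62.0 CPM. Among aortic LYVE1- libraries both were highest in library 3, at 32.6 and 52.4 CPM, as was the sum of the 10 genes (601 CPM). The fibroblast sum is made up mostly of 3 collagen genes. In aortic LYVE1+ libraries Col1a1, Col3a1 and Col1a2 averaged 571.3, 446.9 and 292.7 CPM, of a mean sum of 1578 CPM. The rarer markers Pi16 and Pdgfra averaged 28.9 and 5.54 CPM there, and the smooth muscle sum 97.7 CPM. Co-variation with single markers was not tested. Pearson's r with the fibroblast sum had a median of 0.884 over the 10 genes, from 0.108 for Fbln5 to 0.97 for Mfap5, and r with the smooth muscle sum had a median of 0.355, from -0.23 for Fbln5 to 0.613 for Mgp. Over all genes the medians were 0.00461 and 0.0119. The r with fibroblasts was the larger for 10 of 10 genes, against 49.8% of all genes. By rank Mgp went the other way. Its Spearman's rho was 0.543 with fibroblasts and 0.714 with smooth muscle (exact permutation p = 0.297 and 0.136). Differences between the sorts enter these values. After the mean of each group was subtracted, the fibroblast r was again the larger for 10 of 10 genes, with medians of 0.867 for fibroblasts and 0.223 for smooth muscle. The r of Fbln5 with fibroblasts was then 0.702, and with smooth muscle 0.15. The sums of fibroblast and smooth muscle markers had an r of 0.03 with each other over the aortic libraries (Spearman's rho -0.09, exact permutation p = 0.943 and 0.919).

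Mfap5 and Mfap4 followed the aortic fibroblast sum most closely. Mfap5 had r = 0.97 (exact permutation p = 0.00278) and rho = 1.00 (exact permutation p = 0.00278) with it, and r = 0.149 with the smooth muscle sum (rho -0.09, exact permutation p = 0.761 and 0.919). Mfap4 had r = 0.961 (exact permutation p = 0.00278, rho 0.943, p = 0.0167) with the fibroblast sum and 0.265 (exact permutation p = 0.611, rho 0.2, p = 0.714) with the smooth muscle sum. Without the libraries farthest from the median fibroblast sum, aortic LYVE1+ libraries 1 and 2, r with that sum was 0.922 for Mfap5 and 0.887 for Mfap4, and it was positive for all genes but Fbln5, at 0.475 to 0.922. By Pearson's r, Eln followed the fibroblast sum less closely than all but Fbln5, with r = 0.724 (exact permutation p = 0.111, rho 0.6, p = 0.242). By the same measure it followed the smooth muscle sum more closely than all but Mgp, with r = 0.476 (exact permutation p = 0.344, rho 0.371, p = 0.497). Across the 40 relations, the smallest p that 720 pairings give is 0.00139, and none passed after Benjamini-Hochberg adjustment, with the lowest adjusted p at 0.0556 (two-sided exact permutation). The libraries share their depth and their scaling, so these values describe the libraries and name no source.

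Fat gave a weaker and mixed picture. The r with the fibroblast sum had a median of 0.645 over the 10 genes, from -0.729 for Fbln5 to 0.858 for Lum, and the r with the smooth muscle sum had a median of 0.389. The fibroblast r was the larger for 7 of 10 genes, against 52.1% of all genes, and Eln, Mfap4 and Fbln5 were the exceptions, with r of -0.573, -0.576 and -0.729 for fibroblasts and 0.404, 0.569 and 0.395 for smooth muscle. After the group means were subtracted, the fibroblast r was the larger for 5 of 10 genes, with medians of 0.567 for fibroblasts and 0.447 for smooth muscle, and the r of Eln with fibroblasts was -0.0388. Dcn, Lum and Bgn had the highest r with fat fibroblast markers, at 0.824, 0.858 and 0.775 (exact permutation p = 0.0375, 0.0486 and 0.0514, with rho of 0.657, 0.543 and 0.714 at p = 0.175, 0.297 and 0.136). These rested on the libraries farthest from the median, LYVE1+ library 2 and LYVE1- library 1: without them r was 0.369, 0.416 and 0.217. Without both fat libraries numbered 1, the fibroblast r was the larger for 4 of 10. The fat values of Eln and Mfap4 rest on 8 to 34 and 0 to 13 counts per library. At this depth their correlations in fat are imprecise.

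**Figure D4:**
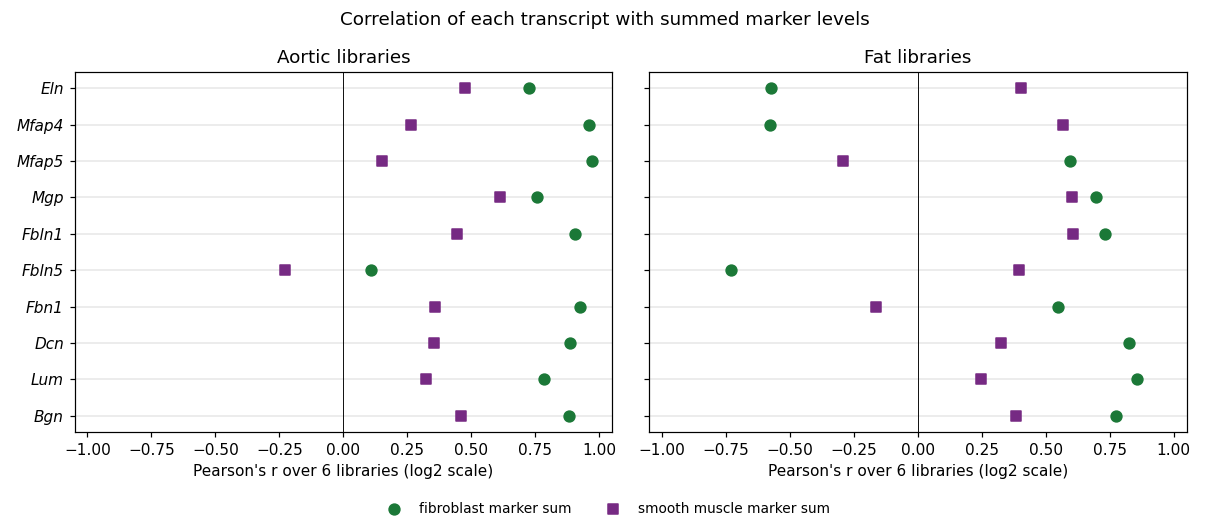
Pearson's r over 6 libraries of each gene's log2 level with the summed fibroblast markers (circles) and the summed smooth muscle markers (squares), in aortic libraries (left) and fat libraries (right). In the aorta every circle lies right of its square, and in fat Eln, Mfap4 and Fbln5 have circles below 0 and squares above 0.

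The genes were also expressed per unit of the fibroblast sum. In the aorta Mfap4 and Mfap5 kept nearly the same ratio in every library: 22.5, 23.1 and 22.8 CPM of Mfap4 per 1000 CPM of fibroblast markers in LYVE1+ libraries and 27.6, 19.6 and 25.1 in LYVE1- libraries. On log2(CPM + 1) values, the SD of this ratio over the 6 aortic libraries was 0.165 for Mfap4 and 0.145 for Mfap5, against 0.558 and 0.563 for their log2 levels, and 0.636 and 0.687 for their log2 ratio to the smooth muscle sum. Eln was less steady, with an SD of 0.548 for the ratio to fibroblasts and 0.707 for the ratio to smooth muscle. Its ratio to fibroblasts was 22.1, 16.5 and 19.4 in aortic LYVE1+ libraries, against 36.4, 25.1 and 45.9 in aortic LYVE1- libraries, without overlap. The lower Eln in aortic LYVE1+ libraries was thus also seen per unit of fibroblast transcripts. Relative to the smooth muscle sum the aortic sorts overlapped. Eln was then at 27.0%, 43.3% and 19.9% of that sum in LYVE1+ libraries, against 34.6%, 82.2% and 52.8% in LYVE1- libraries. The share of all genes whose sorts separate by either ratio was not measured.

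For Fbln5 the ratio to fibroblasts separated the sorts too, as its level did. Its ratio to fibroblast markers was 45.8, 21.8 and 31.5 CPM per 1000 CPM in aortic LYVE1+ libraries, against 17.2, 11.5 and 18.8 in aortic LYVE1- libraries, and 24.1, 81.4 and 87.9 in fat LYVE1+ libraries, against 7.15, 8.02 and 14.4 in fat LYVE1- libraries. The sorts did not overlap in either tissue. The fibroblast sum was lower on average in LYVE1+ libraries, at 1578 against 1922 CPM in the aorta and 575.3 against 835.1 CPM in fat. Dividing by it therefore tends to raise the LYVE1+ values of every gene. The share of all genes separated in this way was not measured. The SD of the log2 ratio of Fbln5 to fibroblasts over the 6 libraries was 0.692 in the aorta and 1.52 in fat, larger than that of its log2 level, 0.423 in the aorta and 1.18 in fat.

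Between tissues, the ratio to fibroblast markers set 4 genes apart. Eln had a median of 23.6 CPM per 1000 CPM of fibroblast markers over the aortic libraries and 4.09 over the fat libraries. The medians of Mfap4 were 22.9 in aorta and 0.514 in fat, those of Mgp 18.4 in aorta and 2.15 in fat, and those of Bgn 34.7 in aorta and 11.5 in fat. For these 4 every aortic library was above every fat library, which held for 0.253% of all genes tested. Mfap5 and Fbn1 were lower in every aortic library than in every fat library by this ratio, which held for 13.9% of all genes, with medians of 7.29 and 7.33 in aorta and 10.1 and 18.3 in fat. The fibroblast sum averaged 1578 and 1922 CPM in aortic LYVE1+ and LYVE1- libraries, against 575.3 and 835.1 CPM in those of fat. Dividing by it therefore lowers the aortic values of every gene, and both shares depend on this divisor. Dcn, Lum, Fbln1 and Fbln5 overlapped, and the median of Dcn was 82.9 in aorta and 125.8 in fat. Smooth muscle markers were higher in the aorta as well. Relative to their sum, Eln, Mfap4 and Mgp were again higher in every aortic library than in every fat library, whereas Bgn overlapped. Bgn was at 34.6% of that sum in aortic LYVE1+ library 3 and at 43.4% in fat LYVE1+ library 1. The share of all genes separated by that ratio was not measured. The part of smooth muscle cells in these ratios was not tested.

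**Figure D5:**
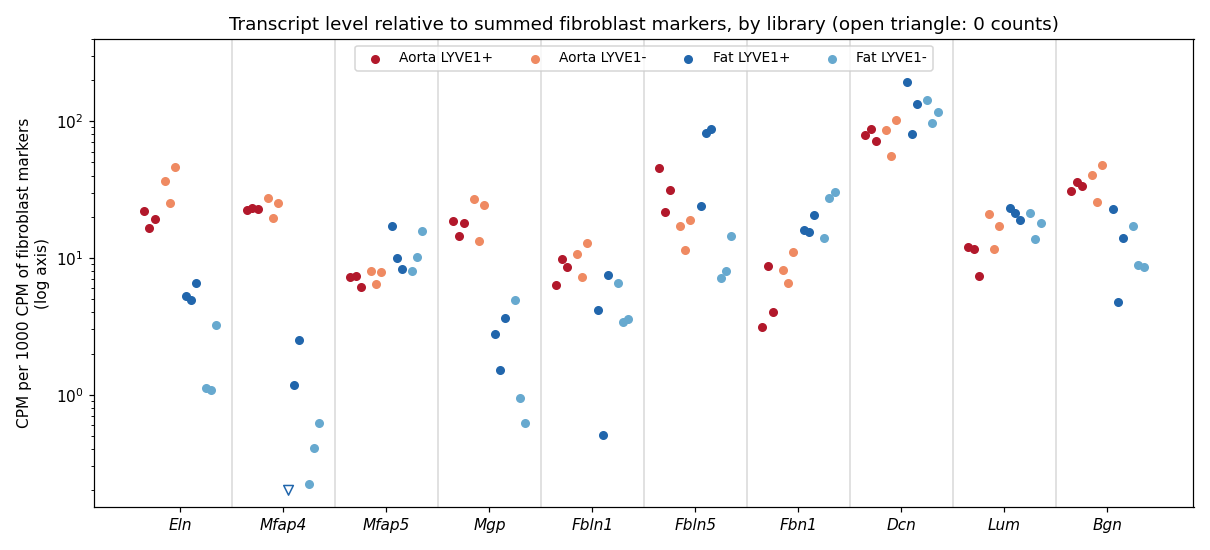
Level of each gene per 1000 CPM of summed fibroblast markers in every library (log axis; an open triangle marks a count of 0). Eln, Mfap4, Mgp and Bgn separate aortic libraries (red and orange) from fat libraries (dark and light blue), and Fbln5 separates LYVE1+ (red, dark blue) from LYVE1- libraries (orange, light blue) within each tissue, as its level does.

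The genes whose levels over all 12 libraries were most like the mean standardised level of the 10 included 3 collagen genes. Among 8932 genes whose average log2 CPM reached 3, Pearson's r was highest for Col1a2 (0.967), Tmem119 (0.946), Col1a1 (0.94), Col3a1 (0.933) and Timp3 (0.93), followed by Smoc2 (0.929), Igfbp7 (0.929), Sfrp2 (0.927), Loxl1 (0.926) and Serpinh1 (0.923). Col1a1, Col1a2 and Col3a1 are also in the fibroblast marker list, Loxl1 encodes a cross-linking enzyme of elastin, and Serpinh1 a collagen chaperone. The difference between tissues enters each r. The mean standardised level of the 10 was highest in aortic LYVE1+ library 2 (1.23) and lowest in fat LYVE1+ library 2 (-1.03).

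Other genes of elastic fibre assembly were tested beside the 10. Over both sorts 9 of 27 tested were called higher in aorta and 1 (Vtn, vitronectin, named here because it completes the count) lower, with a median log2 difference of 0.26, against -0.00545 over all genes. Of all genes tested, 4.6% were called higher there and 8.22% in either direction. The genes that were higher included Adamtsl2, which encodes a fibrillin-binding protein (5.43, SE 0.80, edgeR adjusted p = 0.00131), Ltbp2, a microfibril protein (5.92, SE 0.96, edgeR adjusted p = 0.00246), and Lox, the lysyl oxidase that cross-links elastin (2.55, SE 0.45, edgeR adjusted p = 0.0041). Adamtsl2 had 1 and 5 counts over the fat LYVE1+ and LYVE1- libraries and Ltbp2 had 1 and 3, so the size of these fitted differences is uncertain. Lox averaged 10.3 ± 4.25 and 19.3 ± 1.39 CPM in aortic LYVE1+ and LYVE1- libraries and 1.70 ± 1.86 and 3.86 ± 2.41 CPM in fat LYVE1+ and LYVE1- libraries (SD, n = 3 each). Between the fat sorts 2 of 27 were called higher in LYVE1+ cells, against 1.82% of all genes. They were Adamtsl5 and Emilin2, the second named after its value was seen. Adamtsl5, whose product binds fibrillin, was at 66.4 ± 7.11 CPM in fat LYVE1+ and 17.8 ± 4.31 CPM in fat LYVE1- libraries (SD, n = 3 each; log2 fold change 1.90, SE 0.26, edgeR adjusted p = 0.00153). Fbln5 and Adamtsl5 were thus higher in the same comparison.

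Of the other small leucine-rich proteoglycans, 8 of the 14 listed had enough counts for testing. Fmod, which encodes the collagen-binding fibromodulin, was called higher in aorta over both sorts (log2 difference 3.98, SE 0.63, edgeR adjusted p = 0.00206) and within LYVE1- cells (4.77, SE 0.92, edgeR adjusted p = 0.0169). Fmod averaged 17.3 ± 14.4 and 25.3 ± 13.2 CPM in aortic LYVE1+ and LYVE1- libraries and 2.08 ± 2.29 and 0.911 ± 0.408 CPM in fat LYVE1+ and LYVE1- libraries (SD, n = 3 each).

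Genes of calcification and of vitamin K use, the setting of Mgp, showed differences of their own. Bmp2, an osteogenic growth factor, was higher in LYVE1+ than LYVE1- cells of fat, at 46.5 ± 1.96 against 18.0 ± 3.23 CPM (SD, n = 3 each; log2 fold change 1.37, SE 0.22, edgeR adjusted p = 0.00371). Enpp1, which makes the mineralisation inhibitor pyrophosphate, was at 29.3 ± 10.9 CPM in fat LYVE1+ and 11.1 ± 2.99 CPM in fat LYVE1- libraries (SD, n = 3 each; 1.40, SE 0.30, edgeR adjusted p = 0.0198). Spp1, for osteopontin, was the 1 gene of this list lower in fat LYVE1+ cells (log2 fold change -3.38, SE 0.73, edgeR adjusted p = 0.0217), named after its value was seen. Over both sorts Bmp2 and Bmp4 were higher in aorta and Slc20a1, a phosphate carrier, was lower, out of 11 genes tested. Of all genes, 8.22% were called in either direction there. Bmp4 was at 1.61 ± 0.623 and 2.00 ± 0.882 CPM in aortic LYVE1+ and LYVE1- libraries and had 3 and 1 counts over the fat LYVE1+ and LYVE1- libraries (log2 difference 4.68, SE 0.86, edgeR adjusted p = 0.00534). Slc20a1 differed by -0.71 on the log2 scale (SE 0.17, edgeR adjusted p = 0.021).

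Among 9 tested proteases that can cut elastin, Mmp12, the macrophage elastase, was called lower in aortic LYVE1+ than LYVE1- cells. It was at 2.87 ± 0.274 CPM in aortic LYVE1+ libraries and 125.5 ± 104 CPM in aortic LYVE1- libraries (SD, n = 3 each; log2 fold change -5.44, SE 0.88, edgeR adjusted p = 0.0137). In fat, Cela1, a serine elastase, was at 19.7 ± 6.79 CPM in LYVE1+ libraries and 4.31 ± 1.60 CPM in LYVE1- libraries (SD, n = 3 each; 2.19, SE 0.38, edgeR adjusted p = 0.00575), and Ctsl, which encodes cathepsin L, was 1.18 higher on the log2 scale in LYVE1+ cells (SE 0.28, edgeR adjusted p = 0.0326).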

How the data were processed

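The deposited table holds whole-number read counts per gene for 12 Smart-seq2 libraries. Per the submitters' processing notes, the tools were STAR 2.5.2b, featureCounts 1.5.0 and edgeR 3.14.0 with GRCm38. The strand setting and annotation release are not given in the sources used here, and Smart-seq2 does not mark strand. Symbols and coordinates came from GENCODE M21, which gave 46005 of 46517 genes a symbol.

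The counts were fitted with edgeR 4.0.16 in R 4.3.3, with TMM scaling, 1 mean per group over all 12 libraries, filterByExpr (14216 genes kept) and 8 residual degrees of freedom. Calls used a Benjamini-Hochberg adjusted p below 0.05 over all genes tested. Depth of 5049936 to 29792301 counts sets the precision of low genes, and floors for a count of 0 cover counting error only. Co-variation was tested by two-sided exact permutation of 6 libraries in scipy 1.17.1. The scripts were tested on simulated data.

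The members, gene lists and named genes were chosen with earlier results of these data known. All members are named. From each other pathway list, up to 4 called genes of lowest adjusted p are named, from each marker list the 3 most abundant, and genes outside these rules are marked in the text. A further marker list is not reported here. Same-numbered fat libraries had correlated deviations (0.574, 0.368 and 0.277), above the 0.1 set for pairing, but LYVE1+ library 3 correlated better with LYVE1- library 2 (0.332) and LYVE1+ library 2 nearly as well with LYVE1- library 3 (0.281), so that library 1 alone stands apart. Same-numbered aortic libraries did not deviate together (-0.046, -0.118 and -0.232). Alternatives were DESeq2 1.42.0, other filters, the prefix or the replicate number as a term, fewer groups, and libraries left out. The fits with the RMM prefix alone were chosen after seeing the data.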

Additional observations from a re-analysis of the deposited data

Results flagged for a closer look

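Eln was singled out because its LYVE1 sorts did not overlap in either tissue and differed in opposite directions. Every aortic LYVE1+ library was below every aortic LYVE1- library, and every fat LYVE1+ library was above every fat LYVE1- library. The difference between the effects, aorta minus fat, was -2.38 on the log2 scale (SE 0.53), with an edgeR adjusted p of 0.146 over all genes. The fat levels of Eln rest on 8 to 34 counts per library. Taken singly, the sorts did not overlap for 22.4% of all genes in the aorta and 18.9% in fat. Mfap4 also had opposite signs, with log2 fold changes of -0.32 in the aorta and 1.16 in fat, but its sorts overlapped.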

How the results depend on the processing

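Counts of called genes among the 10 depended on a few choices, and the causes were not tested. Between the aortic sorts 1 gene, in place of 0, was called with DESeq2, with no filter or without both fat libraries numbered 1 (Eln each time), and the count was 0 to 1 when 1 library was left out. With the replicate number as a block, a pairing that the aortic libraries did not bear out, Eln was called there too (1 gene, log2 fold change -1.25, edgeR adjusted p = 0.0467), and the block ended the Bgn call in LYVE1+ cells (edgeR adjusted p = 0.051); it changed no other call of the 10. The tissue difference of the LYVE1 effect had 1 call, in place of 0, with DESeq2 or no filter (Eln) and without both fat libraries numbered 1 (Fbln5), and 0 to 1 when 1 library was left out. Aorta against fat gave 2 in place of 4 calls in LYVE1+ cells with RMM libraries alone, and 2 to 4 when 1 library was left out. In LYVE1- cells it gave 2 in place of 5 with the prefix as a term, and 3 to 5 when 1 library was left out. Over both sorts it gave 2 in place of 6 with the prefix as a term. In fat, r with fibroblasts was the larger for 4 in place of 7 genes without both libraries numbered 1. Fbln5 between the fat sorts kept its direction and its call in all alternatives run (log2 fold change 1.93 to 2.54, adjusted p = 6.86e-08 to 0.045). No called single-gene value changed sign. Depth limits the fat values of Eln, Mfap4 and Mgp.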

Other observations

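Sums of marker lists for other cell types are given as values. Pericyte markers, led by Rgs5, Pdgfrb and Abcc9, summed to 7.92 to 22.5 CPM in aortic LYVE1+ libraries, 17.5 to 32.6 CPM in aortic LYVE1- libraries, 3.29 to 9.38 CPM in fat LYVE1+ libraries and 5.29 to 13.2 CPM in fat LYVE1- libraries. Mesothelial markers, of which Upk3b, Krt19 and Msln were the most abundant, summed to 0.651 to 2.78 CPM in aortic LYVE1+ and 0.474 to 1.15 CPM in aortic LYVE1- libraries, and to 9.97 to 28.1 CPM in fat LYVE1+ and 6.76 to 17.2 CPM in fat LYVE1- libraries. Adipocyte markers, led by Lipe, Car3 and Cfd, summed to 42.7 to 57.8 CPM in aortic LYVE1+ and 62.6 to 78.0 CPM in aortic LYVE1- libraries, and to 103.7 to 281.1 CPM in fat LYVE1+ and 147.9 to 296.5 CPM in fat LYVE1- libraries. Endothelial markers, led by Pecam1, Cldn5 and Vwf, overlapped between all groups, at 11.4 to 67.6 CPM over the 12 libraries. Markers of chondrocytes, led by Comp, Sox9 and Col2a1, summed to at most 3.45 CPM in any library. Lymphatic endothelial markers were led by Pdpn, Ccl21a and Prox1, with the sums given above. Mast cell markers, led by Tpsb2, Cpa3 and Cma1, summed to 1.85 to 12.2 CPM in aortic LYVE1+ and 47.8 to 78.5 CPM in aortic LYVE1- libraries, and to 2.22 to 49.6 CPM in fat LYVE1+ and 10.3 to 17.4 CPM in fat LYVE1- libraries. Eosinophil markers, led by Siglecf, Prg2 and Il5ra, summed to 0.3 to 2.4 CPM in aortic LYVE1+ and 9.52 to 27.7 CPM in aortic LYVE1- libraries, and to 1.31 to 16.8 CPM in fat LYVE1+ and 4.12 to 10.6 CPM in fat LYVE1- libraries. T and NK cell markers, led by Cd2, Lck and Trac, reached their highest sum, 252.2 CPM, in a fat LYVE1+ library. Erythroid markers were led by Hbb-bs, Hba-a1 and Hbb-bt. The part of these cells in the levels of the 10 genes was not tested.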
